A study of Mus musculus with 9 samples.

Results

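Genes that mark B cells and plasma cells were followed in primary 4T1 tumors, a transplanted mouse breast carcinoma, after treatment with BI 853520, an inhibitor of focal adhesion kinase. They are Ms4a1, Cd79a, Cd79b, Cd22, Pax5, Blk, Jchain and Mzb1, 8 genes taken by name out of the 18755 with deposited read counts. Of the 8, 6 had enough counts to be tested. Among these, Cd22 and Cd79b were called higher in the BI 853520-treated tumors (adjusted p of at most 0.05), and 0 were called lower. Of all genes tested, 14.6% were called higher and 14.1% lower. The call of Cd79b was lost in 3 fits that each left out 1 tumor. Cd22 went from 2.55 ± 0.539 CPM (counts scaled to library size, mean ± SD, n = 3) to 7.11 ± 2.22 CPM (n = 6) and Cd79b from 2.01 ± 0.990 to 4.39 ± 1.48 CPM. Cd79a, whose protein pairs with that of Cd79b, stood at 3.54 ± 1.08 and 2.83 ± 0.959 CPM and did not pass the test. Jchain, Ms4a1 and Mzb1 did not pass the test either, and Pax5 and Blk had too few counts for it. Per kilobase of gene length, Jchain averaged 0.992 CPM and Cd79b 1.68 CPM in vehicle tumors, with overlapping ranges. Ms4a1, Pax5, Blk and Mzb1 had lower means.

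The 9 tumors came from female BALB/c mice aged 6 to 10 weeks at injection, which keep their own lymphocytes. Each mouse received 4T1 cells in a mammary fat pad. The vehicle group comprised 3 tumors (replicates 1 to 3) of mice given 0.5% Natrosol for 5 days, and the BI group comprised 6 tumors (replicates 4 to 9) of mice that received BI 853520 at 50 mg/kg from day 15 after injection, also for 5 days. All 9 tumors were grown from the same cell line, and pieces of whole tumor were homogenized, so cancer cells, stroma and leukocytes were measured together. No B cells were isolated, so fewer cells of a type and less RNA per cell cannot be told apart in any value below.

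B cells recognize antigen through a surface immunoglobulin that signals through the CD79A and CD79B heterodimer. CD22 is a sialic acid-binding co-receptor that dampens this signal, BLK is a SRC family kinase that acts beside the receptor, and CD20, the product of Ms4a1, is a membrane protein of mature B cells. PAX5 is the transcription factor that holds the B cell program in place, and it is lost when B cells become antibody-secreting plasma cells. Plasma cells make the joining chain of polymeric IgA and IgM, encoded by Jchain, and MZB1, a chaperone of the endoplasmic reticulum that helps immunoglobulin assemble. In tumors, B cells lie scattered in the stroma or gather with T cells in follicle-like aggregates.

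On the mm9 assembly used for the counts, Cd22 lies on chromosome 7 at 31650421 to 31665361 (minus strand), Cd79a on chromosome 7 at 25682400 to 25687216 (plus strand) and Cd79b on chromosome 11 at 106172655 to 106176076 (minus strand). Ms4a1 lies on chromosome 19 at 11324654 to 11340669, Blk on chromosome 14 at 63991674 to 64036024 and Jchain on chromosome 5 at 88949537 to 88956916, all on the minus strand. Pax5 lies on chromosome 4 at 44544017 to 44724318 (minus strand), and 125 of its annotated exon bases overlap a gene on the other strand, Gm12462. Whether the strand was used in counting is not given in the sources used here, so reads of that overlap cannot be assigned with certainty. The counts cover exonic reads only.

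Promoter windows in the RefSeq table, from 250 bases before to 50 bases after the start of the gene on GRCm38.p6, could be matched for 4 of the 8 genes (Cd79a, Cd22, Pax5 and Jchain). The windows of Cd22 and Cd79a are shown. Capitals mark the match in Cd22 to CCCNNGGG, a palindrome bound by the B cell factor EBF1. Cd79a has no match to these exact letters. EBF1 sites that depart from them would be missed, so a lack of such sites in Cd79a is not shown. The capitals therefore mark no difference in EBF1 binding between Cd22 and Cd79a. Whether a match bears on the change of a gene was not tested. Both windows are written on the strand of the gene, at chr7:30878979-30879278 (minus) for Cd22 and chr7:24897247-24897546 (plus) for Cd79a.
Cd22: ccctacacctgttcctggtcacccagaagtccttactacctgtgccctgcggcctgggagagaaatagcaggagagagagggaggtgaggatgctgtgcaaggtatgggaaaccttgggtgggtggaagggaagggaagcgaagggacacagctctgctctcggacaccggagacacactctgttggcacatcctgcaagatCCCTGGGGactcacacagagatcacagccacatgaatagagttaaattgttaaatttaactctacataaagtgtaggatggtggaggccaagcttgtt
Cd79a: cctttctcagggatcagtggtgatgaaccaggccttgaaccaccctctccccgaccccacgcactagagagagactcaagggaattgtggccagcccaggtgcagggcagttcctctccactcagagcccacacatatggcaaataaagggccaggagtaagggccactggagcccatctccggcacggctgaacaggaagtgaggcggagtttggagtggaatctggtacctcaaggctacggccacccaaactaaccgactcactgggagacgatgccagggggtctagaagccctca

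The palindrome was found in 1 of the 4 windows, beginning 48 bases before the start of Cd22, and in 13.7% of all 32851 windows searched. The octamer ATGCAAAT, bound by the OCT factors that B cells use in immunoglobulin promoters, was found in 0 of the 4 windows and in 1.74% of all windows. Both motifs were searched on both strands. These are letter matches in short windows, described without a test.

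The libraries of the 3 vehicle tumors held 21727879 to 33850245 counts and those of the 6 BI tumors 16931607 to 22349873. A floor of 3 counts therefore stood at 0.0886 to 0.177 CPM, for counting error only. EdgeR's quasi-likelihood test compared BI with vehicle over 13966 genes that passed its filter on low counts, and adjusted p values are Benjamini-Hochberg values over all of them. An exact permutation test of log2 CPM, two-sided, is given beside it, with a smallest possible p of 0.0238 over the 84 ways to divide the tumors. Nothing in the sources says that libraries were made or sequenced in batches.

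Of the 8 genes, 6 passed the filter, and Pax5 and Blk did not. Among the 6 tested, 2 were called higher (Cd22 and Cd79b) and 0 lower at an adjusted p of at most 0.05, where 14.6% of all genes tested were called higher and 14.1% lower. In Cd22 alone every BI tumor lay above every vehicle tumor, which also held for 14.1% of all genes tested, and in none of the 8 did every BI tumor lie below every vehicle tumor, as held for 14.0%. With 6 genes tested, the 2 calls are read only beside these shares.

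**Figure D1:**
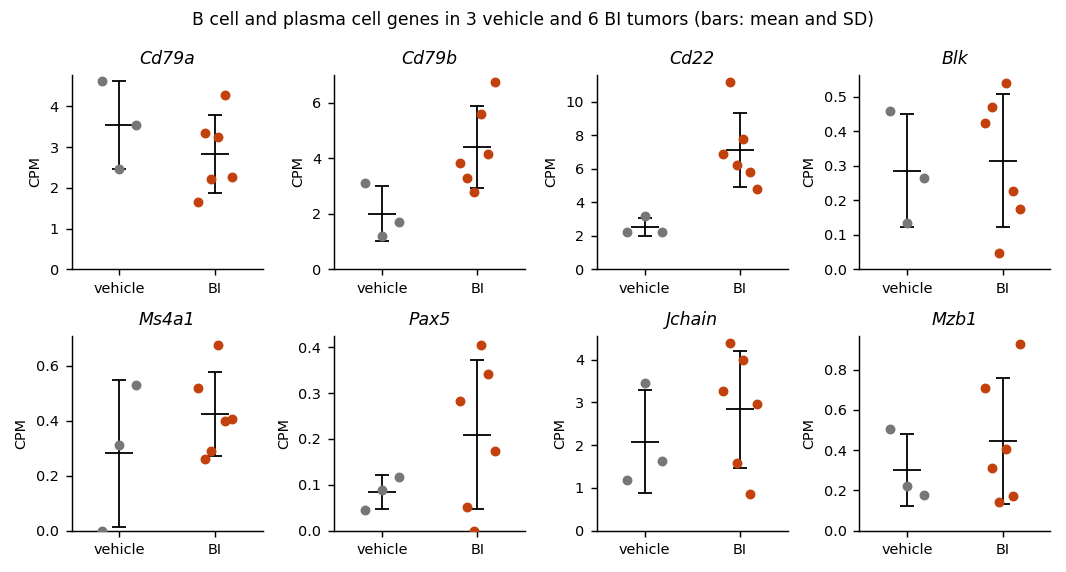
Normalized expression in CPM (vertical axis, from 0 in each panel, with a scale of its own) of the 8 genes in 3 vehicle (grey) and 6 BI tumors (orange); points are tumors, and bars give the mean and SD. Cd22 is the gene whose groups do not overlap, and Cd79b overlaps by 1 BI tumor.

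Cd22, the inhibitory co-receptor, gave 2.25, 3.17 and 2.24 CPM in vehicle tumors 1, 2 and 3. In the BI tumors it ranged from 4.81 to 11.2 CPM around a median of 6.56. The lowest BI tumor, replicate 9, thus stood clear of the highest vehicle tumor, replicate 2, and BI replicate 5 was the highest of all. The rise was 2.80-fold, a log2 fold change of 1.49 (SE 0.257, 95% interval 0.93 to 2.05) with an edgeR adjusted p of 0.00142, and the exact permutation p was 0.0238. It rested on 1043 counts over the 9 tumors. Without any single tumor the log2 fold change stayed between 1.31 and 1.67 and the adjusted p at or below 0.0124.

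Cd79b, one chain of the signaling heterodimer, gave 3.12, 1.21 and 1.71 CPM in vehicle tumors 1, 2 and 3. Its BI values ran from 2.80 to 6.72 CPM with a median of 3.99. The groups overlapped, since vehicle replicate 1 exceeded BI replicate 6, while the other 5 BI tumors lay above every vehicle tumor. The log2 fold change was 1.13 (SE 0.335, interval 0.40 to 1.87), with an edgeR adjusted p of 0.0251 and an exact permutation p of 0.0476. This call was lost without vehicle replicate 2 (adjusted p = 0.101), vehicle replicate 3 (0.105) or BI replicate 7 (0.0509), with log2 fold changes of 0.89 to 1.57 over all tumors left out in turn.

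Cd79a, the partner chain, gave 4.63, 2.46 and 3.53 CPM in vehicle tumors 1, 2 and 3. The BI tumors ranged from 1.65 to 4.28 CPM with a median of 2.75. The values of both groups covered much the same range, although 3 BI tumors lay below every vehicle tumor. The log2 fold change was -0.33 (SE 0.285, interval -0.95 to 0.30, edgeR adjusted p = 0.421, exact permutation p = 0.310), and it ranged from -0.52 without vehicle replicate 2 to -0.10 without vehicle replicate 1. A rise as large as that of Cd22 lies outside this interval, and Cd79a was measured at a depth, 607 counts, close to the 668 counts of Cd79b.

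The transcripts of the heterodimer's chains were also set against each other within each tumor. Cd79b counts per Cd79a count were 0.673, 0.491 and 0.483 in vehicle tumors 1, 2 and 3, below 1 in all of them. The BI tumors gave 2.31, 0.984, 1.26, 1.72, 0.973 and 2.97 for replicates 4 to 9, all above every vehicle tumor. On the log2 scale of CPM the ratio was -0.85 ± 0.252 (SD, n = 3) in vehicle and 0.62 ± 0.647 (n = 6) in BI, a difference of 1.47. Leaving out each tumor in turn gave differences of 1.29 to 1.61. The ratio was chosen after the values of both genes had been seen, so it is a description and carries no test. It is a ratio of reads, not corrected for the gene lengths, which are the same in every tumor.

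**Figure D2:**
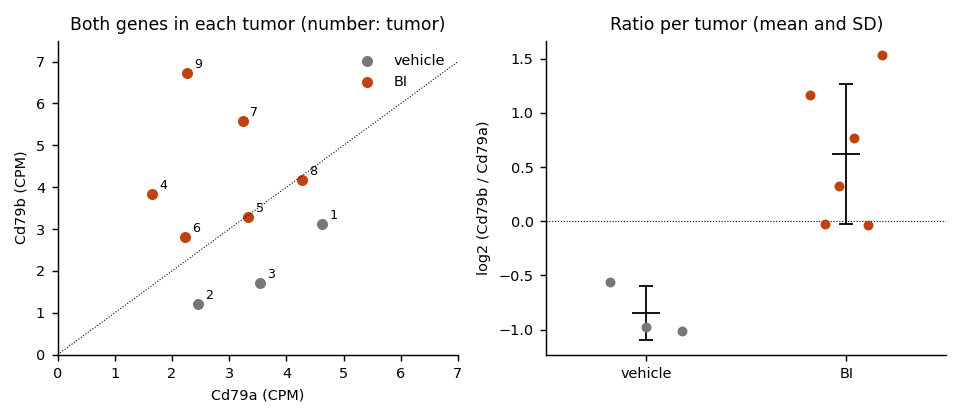
Left, Cd79b against Cd79a in CPM for each tumor, numbered by replicate, with a dotted line where both are equal. Right, the log2 ratio of Cd79b to Cd79a per tumor with mean and SD; the 3 vehicle tumors lie between -1.01 and -0.557 and the 6 BI tumors between -0.038 and 1.53.

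The other B cell genes were near the limit of detection. Ms4a1, which encodes CD20, had counts of 0, 7 and 18 in vehicle tumors 1, 2 and 3 and of 5 to 15 in the BI tumors, that is 0, 0.313 and 0.530 CPM against 0.261 to 0.674 CPM (median 0.402). The groups overlapped, and the vehicle tumors took in the single tumor without a read. Its log2 fold change was 0.49 (SE 0.602, interval -0.82 to 1.80, edgeR adjusted p = 0.576, exact permutation p = 0.381), and without vehicle replicate 1 it was -0.014.

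Pax5 had counts of 1, 2 and 4 in vehicle tumors 1, 2 and 3 and of 6, 1, 0, 9, 6 and 3 in BI tumors 4 to 9. Thus 5 of the 9 tumors were at or under the floor of 3 counts, and no difference was detectable at this depth. Blk had counts of 10, 3 and 9 in the vehicle tumors and of 9, 9, 1, 12, 4 and 3 in the BI tumors, again with overlapping groups. Fitted without the filter on low counts, Pax5 gave a log2 fold change of 1.21 (interval -0.57 to 2.99, edgeR adjusted p = 0.352) and Blk one of 0.16 (interval -1.13 to 1.45, adjusted p = 0.880).

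The means of the plasma cell genes differed between the groups by less than the spread between tumors. Jchain gave 1.19, 3.44 and 1.62 CPM in vehicle tumors 1, 2 and 3 and ranged from 0.856 to 4.38 CPM (median 3.11) in the BI tumors. Both its lowest and its highest value came from BI tumors, replicates 8 and 5. The log2 fold change was 0.46 (SE 0.459, interval -0.54 to 1.46, edgeR adjusted p = 0.482, exact permutation p = 0.595), and it moved to 0.19 without vehicle replicate 1 and to 1.00 without vehicle replicate 2. Mzb1 lies on chromosome 18 at 35806920 to 35809021 (minus strand). It gave 0.504, 0.224 and 0.177 CPM in the vehicle tumors and 0.145 to 0.927 CPM (median 0.359) in the BI tumors, with 2 BI tumors above and 2 below every vehicle tumor. Its log2 fold change was 0.60 (SE 0.599, interval -0.71 to 1.91, edgeR adjusted p = 0.483, exact permutation p = 0.571), with values from 0.28 without vehicle replicate 3 to 1.14 without vehicle replicate 1.

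**Figure D3:**
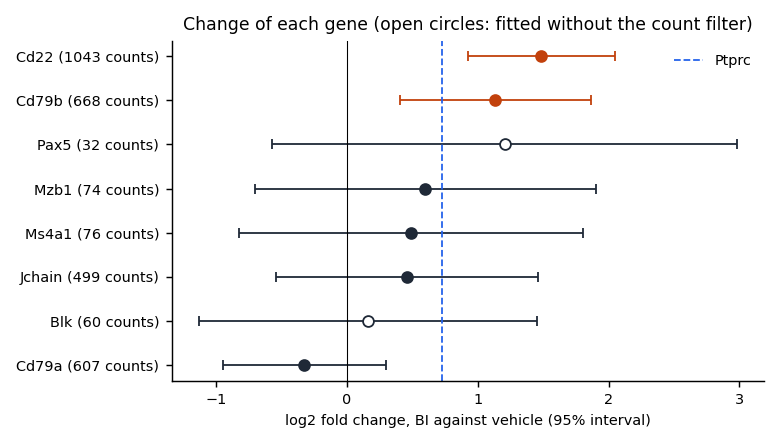
Log2 fold change of BI against vehicle (horizontal axis) with its 95% interval for each of the 8 genes, with the counts behind each; orange marks an adjusted p of at most 0.05, open circles a fit without the filter on low counts, and the dashed line the log2 fold change of Ptprc (0.73). The intervals of Cd22 and Cd79b lie above 0, and those of the other 6 genes include it.

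Summed over the 8 genes, expression was 10.2 to 12.2 CPM in the vehicle tumors and 13.3 to 23.2 CPM in the BI tumors. Without Cd22 and Cd79b the sum was 6.24 to 6.83 CPM and 4.30 to 9.26 CPM, so that the BI tumors spread to both sides of the vehicle tumors. Among the BI tumors the variance of the counts was 12.4 times that of counting error for Jchain, 12.0 times for Cd22, 10.1 times for Cd79b and 6.07 times for Cd79a. For the genes with fewer counts it was 4.29 times for Mzb1, 2.55 times for Pax5, 2.33 times for Blk and 1.18 times for Ms4a1. In the 3 vehicle tumors it was 15.7 times for Jchain, 11.5 for Cd79b, 7.69 for Cd79a and 2.56 for Cd22. There Ms4a1 gave 5.85, Mzb1 2.75, Blk 2.14 and Pax5 0.385. Among the BI tumors, replicate 7 was one of the highest 2 in 6 of the 8 genes, and replicate 6 one of the lowest 2 in 7. The order still differed by gene. Cd22 was highest in replicate 5 and lowest in replicate 9, where Cd79b and Mzb1 were highest.

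Per kilobase of gene length, which allows levels to be compared between genes, Cd79a was the highest in vehicle tumors at 2.67 ± 0.817 CPM per kb (SD, n = 3), followed by Cd79b at 1.68 ± 0.826, Jchain at 0.992 ± 0.569 and Cd22 at 0.577 ± 0.122. Mzb1 (0.333), Ms4a1 (0.137), Blk (0.115) and Pax5 (0.0698) came next. In BI tumors the order began with Cd79b at 3.67 ± 1.24 CPM per kb (n = 6), followed by Cd79a at 2.13 ± 0.723, Cd22 at 1.61 ± 0.502 and Jchain at 1.35 ± 0.652, and ended with Mzb1 (0.491), Ms4a1 (0.207), Pax5 (0.173) and Blk (0.127). No pair of neighbours in either order had ranges that lay apart. Cd79b exceeded Cd79a per kilobase in 6 of 6 BI tumors, and Cd79a exceeded Cd79b in 3 of 3 vehicle tumors. Even Cd79b, the highest on average, ranked above 44.1% of the genes counted, and Blk, the lowest, above 22.6%.

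Ptprc, which encodes the pan-leukocyte phosphatase CD45, also rose in the BI tumors, from 174 ± 7.98 CPM (n = 3) to 289 ± 33.7 CPM (n = 6), a log2 fold change of 0.73 (edgeR adjusted p = 0.000225). Each of the 8 genes was therefore compared with Ptprc within each tumor, in 8 exact permutation tests whose p values are not adjusted for their number. Relative to Ptprc, Cd22 was higher in BI by 0.69 on the log2 scale (exact permutation p = 0.0476), with 5 of 6 BI tumors above every vehicle tumor. Cd79a was lower relative to Ptprc, with a difference of -1.06 (exact permutation p = 0.0476) and 5 of 6 BI tumors below every vehicle tumor. For Cd79b the difference was 0.41 (exact permutation p = 0.286), and the other 5 genes had p values of 0.167 or more.

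With the mean of 15 T cell genes as the reference instead, the difference was 0.52 for Cd22 (exact permutation p = 0.143) and -1.23 for Cd79a (p = 0.0476). Cd79a thus stood lower beside either reference, while the result for Cd22 passed 0.05 beside Ptprc and not beside the T cell genes.

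**Figure D4:**
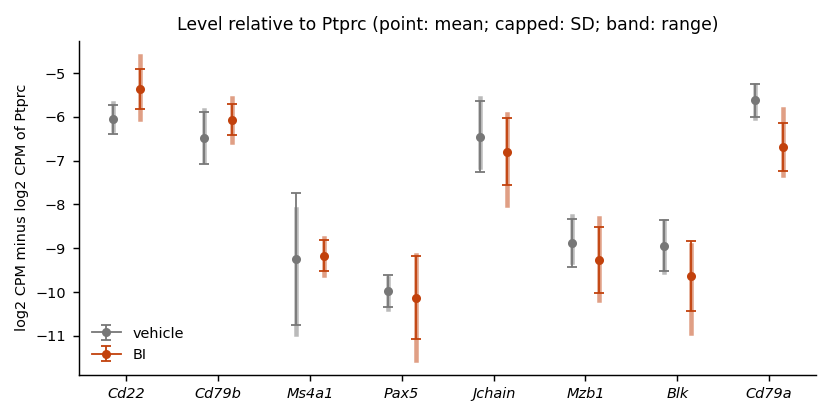
Log2 CPM of each gene minus log2 CPM of Ptprc in the same tumor (vertical axis) for vehicle (grey) and BI (orange); points are means, capped bars the SD and wide bands the range over 3 and 6 tumors. Cd22 lies higher in BI by 0.69 and Cd79a lower by a difference of -1.06.

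Further genes of the lineage were read from lists. Of 23 genes of B cell identity, 18 were tested, 5 rose, 0 fell and 13 were not called, with a median log2 fold change of 0.57 beside -0.00371 for all genes tested, of which 14.6% rose. Without vehicle replicate 1 or 2 the rises numbered 3, without vehicle replicate 3 they numbered 2, and without BI replicate 6 they numbered 8. In the fit without vehicle replicate 3, 1332 of 14129 genes rose in all. Ralgps2, a guanine nucleotide exchange factor, rose from 2.25 ± 0.337 to 5.43 ± 0.779 CPM (log2 fold change 1.26, edgeR adjusted p = 0.00034). Pou2f2, which encodes the lymphoid OCT2 factor, rose by 0.96 (adjusted p = 0.00198) and Cd37, a tetraspanin of mature B cells, by 0.37 (adjusted p = 0.0207), a call lost without vehicle replicate 2 (0.0856) or 3 (0.106). Cd24a, the most abundant per length of the list and also made by epithelial cells, had a log2 fold change of -0.45 (adjusted p = 0.0691), which passed the threshold without vehicle replicate 2 (0.0341) or BI replicate 8 (0.0317). Fcer2a, the low-affinity IgE receptor of B cells, was at the floor in every tumor. Genes of other leukocytes rose as well, 10 of 10 macrophage genes and 13 of 15 T cell genes. The part of such cells in the rises of this list was not tested.

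Of 20 genes of B cell receptor signaling, all were tested, 15 rose and 0 fell, with a median log2 fold change of 0.75. Of all genes tested, 14.6% rose and 14.1% fell. Plcg2, the phospholipase that acts below the receptor, rose by 1.20 on the log2 scale, Prkcb, the protein kinase C that follows it, by 0.96, and Inpp5d, the SHIP1 phosphatase that opposes them, by 0.92. Fcgr2b, the inhibitory Fc receptor and the most abundant per length, rose from 288 ± 37.7 to 502 ± 65.8 CPM (log2 fold change 0.80). These genes also act in macrophages, and of 10 macrophage genes 10 rose, with a summed level of 2909 to 3657 CPM in vehicle and 5017 to 6742 CPM in BI tumors. Their part in the change of this list was not tested.

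The 15 plasma cell genes beyond Jchain and Mzb1 went both ways: 13 were tested, 5 rose, 1 fell and 7 were not called, with a median of 0.05. Beside them, 14.6% of all genes tested rose and 14.1% fell. Irf4, a transcription factor of plasma cells and activated lymphocytes, rose from 3.52 ± 0.374 to 6.50 ± 0.698 CPM (log2 fold change 0.88, edgeR adjusted p = 0.000762). Slamf7, a surface receptor of plasma cells and other leukocytes, rose by 0.89 (adjusted p = 0.00226). Pim2, a survival kinase, fell from 15.3 ± 0.697 to 8.46 ± 1.43 CPM (log2 fold change -0.85, adjusted p = 0.000571). Sdc1, the plasma cell antigen CD138 that carcinoma cells also carry, was the most abundant per length at 435 ± 37.0 and 405 ± 49.6 CPM (log2 fold change -0.10, adjusted p = 0.473). Of 18 immunoglobulin entries, 4 were among the counted genes and 0 were tested, Vpreb1, a surrogate light chain of precursor B cells, being the most abundant per length with at most 9 counts in any tumor. The heavy and light constant chains were not analysed here.

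**Figure D5:**
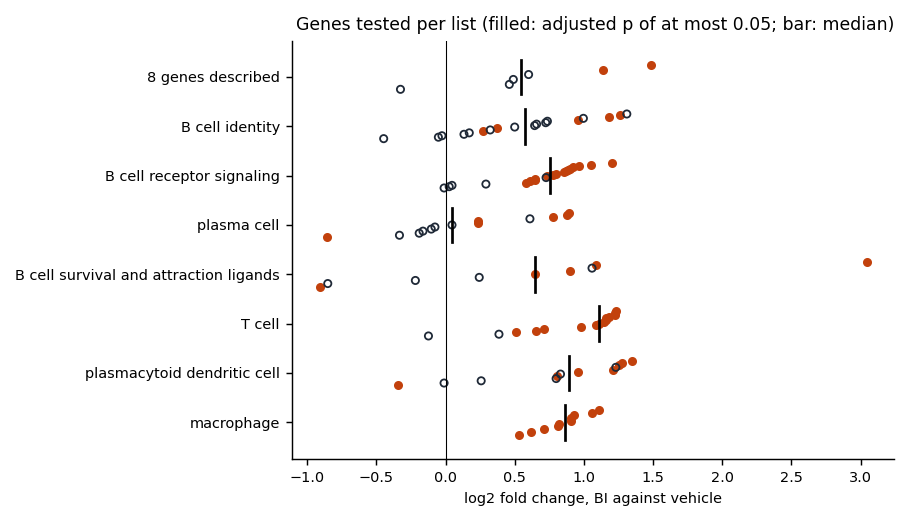
Log2 fold change of BI against vehicle (horizontal axis) for each gene tested in 8 lists (vertical axis), orange where the adjusted p was at most 0.05 and open otherwise, with a bar at the median. The median was 0.57 for B cell identity, 0.05 for plasma cells and 1.11 for T cells.

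Of 15 ligands that attract B cells or keep them alive, 13 were counted and 9 tested. Of these, 4 rose and 1 fell, where 14.6% of all genes tested rose and 14.1% fell. The median log2 fold change was 0.65, and without vehicle replicate 3 the calls were 2 and 0. Cxcl13, the chemokine that draws B cells into follicles, gave 8.71, 3.04 and 3.33 CPM in vehicle tumors 1, 2 and 3 and 10.4 to 109 CPM in BI tumors (median 36.7). The groups did not overlap, although the lowest BI tumor lay close to vehicle replicate 1. The log2 fold change was 3.05 (SE 0.722, edgeR adjusted p = 0.00877), and the call was lost without vehicle replicate 3 (adjusted p = 0.0502). Its log2 fold change was 3.67 without vehicle replicate 1 and 2.46 without BI replicate 9, the tumor with the highest value.

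Ltb, one chain of the lymphotoxin that organizes lymphoid tissue, rose by 0.90 on the log2 scale (edgeR adjusted p = 0.00174), and Tnfsf13, which encodes the plasma cell survival factor APRIL, rose by 0.65 (adjusted p = 0.00286). Tnfsf13b, which encodes BAFF and was added after the values were seen, had a log2 fold change of -0.22 (adjusted p = 0.265). Il6, also added after the values were seen, was the ligand that fell (log2 fold change -0.91, adjusted p = 0.0131).

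Genes of other cells that could carry or surround these transcripts were examined in the same fit. Of 15 T cell genes, 13 rose and 0 fell, where 14.6% of all genes tested rose and 14.1% fell. Their median was 1.11 and their summed level 199 to 229 CPM in vehicle and 327 to 426 CPM in BI tumors. Thy1 alone had means of 97.3 CPM in vehicle and 138 CPM in BI tumors within that sum. The T cell receptor chain gene Cd3e, for example, rose from 12.5 ± 0.444 to 27.6 ± 4.10 CPM. Of 12 genes of plasmacytoid dendritic cells, which share several B cell transcripts, 6 rose and 1 fell, with a median of 0.89 and a summed level of 553 to 560 CPM and 537 to 673 CPM. Most of this sum was Tcf4, with means of 392 CPM in vehicle and 390 CPM in BI tumors, so the sum mainly follows that gene. Siglech, the defining gene of these cells, chosen after the values were seen, stood at 1.82 ± 0.526 and 3.16 ± 1.75 CPM (edgeR adjusted p = 0.173).

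Madcam1, Glycam1, Chst4 and Clec4g, which mark lymph node vessels, had at most 3 counts in every tumor. Of 12 genes of lymph node stroma and follicles 8 were counted, 4 tested and 1, Cxcl13, rose. Of 8 germinal center genes 5 were tested, 2 rose and 1 fell, where 14.6% of all genes tested rose and 14.1% fell. Gcsam, a signaling adaptor of germinal center B cells, rose by 1.61 on the log2 scale (edgeR adjusted p = 0.00054). Bcl6, which encodes a transcriptional repressor made in germinal center B cells, rose by 0.27, and Mybl1 had a log2 fold change of -0.44. Per kilobase, Bcl6 stood at 15.2 CPM in vehicle and 18.3 CPM in BI tumors, where Ms4a1 stood at 0.137 and 0.207. Which cells made Bcl6 was not tested. The call of Bcl6 was lost without vehicle replicate 1 (adjusted p = 0.0800) or 3 (0.105). Of 8 keratin, claudin and other carcinoma genes, 0 rose and 2 fell, with a summed level of 938 to 1163 CPM in vehicle and 734 to 937 CPM in BI tumors. Nearly all of this sum was Krt18 (mean 578 CPM in vehicle) and Krt8 (478 CPM). Epcam (1.06), Krt7 (0.59) and Cldn7 (0.11), named after the values were seen, had positive log2 fold changes that were not called. The other genes of this list had negative ones. The part of these other cells in the values of Cd22 and Cd79b was not tested.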

How the data were processed

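RNA sequencing of 9 4T1 tumors was used, 3 from vehicle-treated and 6 from BI 853520-treated mice, 1 stranded messenger RNA library each. The authors aligned paired reads to mm9 with STAR, kept unique alignments, and deposited raw counts of reads that started in annotated exons of RefSeq genes, with gene lengths and without normalization. Multi-mapping reads are thus missing from these values, and a gene with near-identical copies would be undercounted.

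Entrez identifiers were matched to current RefSeq symbols (18700 of 18755), since Ms4a1 and Blk are also old names of other genes. Gene positions on mm9 were read from GENCODE. Counts were tested in edgeR 4.0.16 (R 4.3.3) with TMM factors of 0.984 to 1.02, filterByExpr (minimum count 10, minimum total 15) and the quasi-likelihood F test without covariates; the interval is the log2 fold change with its SE and the t quantile of the fit. The TMM factors also scaled CPM, and a prior count of 2 was added for log2 CPM. Pairs of tumors in a group differed by a mean chi-square per gene of 8.83 or more, so none was a repeated library. The p values measure the spread between tumors, 1 per animal as far as the labels say. The test was checked on simulated data.

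The 8 genes, the lists and the tests were chosen with earlier results of these data known. Named were all 8 genes, Ptprc, per list the most abundant gene per length and the 3 with the smallest p, and the 5 genes most alike. Some single genes are not reported here. The lists were B cell identity, B cell receptor signaling, plasma cell, immunoglobulin, ligands, T cell, plasmacytoid dendritic cell, lymph node stroma and follicle, germinal center, macrophage and carcinoma epithelium. Alternatives were other size factors, other filters, edgeR's likelihood ratio test, DESeq2 1.42.0, limma-voom (limma 3.58.1), the study's unadjusted p with a fold limit, thinned counts, another prior count and leaving out each tumor. Protein sequences and signaling motifs were not analysed here.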

Additional observations from a re-analysis of the deposited data

Results flagged for a closer look

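Among the 6 BI tumors, 54 genes or ratios were examined for a single tumor far from the rest, by the gap to its neighbour over the whole range (Dixon's criterion), which chance passes in about 1 of 20. None of the 8 B cell and plasma cell genes had such a tumor. Cxcl13 stood at 109 CPM in BI replicate 9, Irf4 at 7.87 CPM in replicate 5, Prkcb at 55.8 CPM in replicate 8, Tnfsf13 at 25.9 CPM in replicate 6 and Lyz2 at 2870 CPM in replicate 6.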

How the results depend on the processing

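Cd22 kept its direction and its call in all 17 alternatives (other size factors, filters, tests and tools, thinned counts and each tumor left out), and Cd79a its direction in the same 17. With tumors left out in turn, between 1 and 2 of the 8 genes were called higher, Cd79b being lost, and over all genes tested 1332 to 2026 were called higher and 1172 to 1980 lower. The log2 difference of the Cd79b to Cd79a ratio stayed between 1.29 and 1.61. Ms4a1 changed sign to -0.014 without vehicle replicate 1 (range -0.014 to 1.40 over tumors left out), and its difference relative to the T cell genes was -0.082. Tcf4, the most abundant plasmacytoid dendritic cell gene per length, had a log2 fold change of -0.01, which was 0.0028 with a filter of 1 CPM and lay between -0.058 and 0.032 with tumors left out. B cell identity genes called higher numbered 8 by edgeR's likelihood ratio test and 2 to 8 with tumors left out, and 1 was called lower by the likelihood ratio test and by DESeq2, with 0 to 1 when tumors were left out. Of the ligands, 2 to 4 were called higher and 0 to 1 lower with tumors left out. The cause of these changes was not tested. Pax5, Blk, Ms4a1 and Mzb1 have 32 to 76 counts over all tumors, and how much of the width of their intervals comes from depth was not tested. No paired analysis was possible because the replicate numbers of the groups do not repeat.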

Other observations

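The other genes of these lists named by the rule moved as follows in edgeR's fit. Among T cell genes, Cd2 rose by 1.16 and Cd3g by 1.08 on the log2 scale, and Thy1, the most abundant per length, by 0.51, a call lost without vehicle replicate 1 (adjusted p = 0.0586) or 2 (0.0528). Of the plasmacytoid dendritic cell list, Tlr9 rose by 1.25, Lair1 by 0.96 and Tlr7 by 0.81. Their vehicle and BI means were 10.8 and 25.6 CPM for Tlr9, 46.8 and 90.7 for Lair1 and 20.6 and 36.0 for Tlr7. Siglech, which was not called, stood at 1.82 and 3.16 CPM. The part of macrophages, of whose 10 genes 10 rose, in these rises was not tested. Among macrophage genes, C1qb rose by 1.11, Adgre1 by 0.93, Csf1r by 0.91 and Lyz2 by 0.71, the last being lost without vehicle replicate 3 (adjusted p = 0.0507). Krt18 and Krt8, keratins of the carcinoma cells, had log2 fold changes of -0.50 and -0.28, both called lower (Krt8 lost that call in 7 of 17 alternatives, with vehicle replicate 1 or 2 or BI replicate 6, 7, 8 or 9 left out and with a filter of 1 CPM, at an adjusted p of up to 0.195), while Cldn4 at -0.67 was not called (adjusted p = 0.0939). In lymph node stroma, Pdpn (-0.20), Il7 (-0.85) and Tnfsf11 (0.48) were not called, and neither was the germinal center gene S1pr2 (-0.08).

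Likeness was computed for 12185 tested genes above a limit on mean level, and genes of the lists were left out afterwards. For each gene the deviation from the group mean was correlated (Pearson) over the 9 tumors with a mean standardized deviation. That mean was taken over the 6 tested B cell and plasma cell genes. Likeness was highest for Ugt1a7c (0.967), Fgf7 (0.951), Adgrg5 (0.939), Kif26b (0.918) and Sec14l2 (0.916). The deviations were carried by the BI tumors, at -0.844 in replicate 6 and 0.644 in replicate 7, while the vehicle tumors lay between -0.017 and 0.0106. The points share libraries and group means, and the 5 genes are the extremes of many, so the values are a description.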
